A study of Homo sapiens with 7 samples.

Results

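The genes described here encode the nuclear subunits of the mitochondrial respiratory chain beyond complex I, namely complexes II, III and IV, the ATP synthase (complex V) and cytochrome c. They were chosen by symbol, as the genes of the expression table whose names are on a fixed list of these subunits, and they are 39 of the 20072 genes listed. The list held 4 genes of complex II, 9 of complex III, 10 of complex IV, 15 of the ATP synthase and the 1 gene of cytochrome c. The study compared 3 gene expression parameters in untreated HCT116 cells, an established human colorectal carcinoma line, grown in log phase in serum-free McCoy's 5A medium with epidermal growth factor, insulin and transferrin. Transcription rate (TR) was read by GRO-seq, in which nuclei extend their engaged RNA polymerases in the presence of bromo-UTP and the labelled nascent RNA is sequenced, in 2 libraries. mRNA abundance (RA) was read by RNA-seq of mRNA in 3 libraries, and translation activity (TA) by polysome profiling, the sequencing of mRNA from the sucrose gradient fractions that hold polysomes after cycloheximide, in 2 libraries. All 7 libraries come from 1 line under 1 condition, so the comparisons are between assays and not between treatments. The study describes log-phase cells divided among the assays and calls the replicates biological, but neither it nor the labels say which libraries came from separate cultures, so the p-values measure the spread between these libraries, which may be technical.

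The respiratory chain passes electrons from metabolic substrates to oxygen across the inner mitochondrial membrane. Succinate dehydrogenase (complex II) feeds them from succinate to ubiquinone, the cytochrome bc1 complex (complex III) hands them to cytochrome c, and cytochrome c oxidase (complex IV) reduces oxygen, while the ATP synthase uses the proton gradient built on the way. Complexes III, IV and V are mosaics of subunits made from mitochondrial DNA inside the organelle and of nuclear-encoded subunits translated in the cytosol and imported. Only the nuclear-encoded ones are described here, and the mitochondrially encoded ones were not analysed here.

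Levels are given as RPKM, reads scaled to the length of the exons and to the number of mapped reads, so that they are comparable between genes per length and are shares of each library. The library sizes, worked out from the values, were 3391897 and 5629982 reads for TR, 20299018, 22532134 and 20560372 for RA, and 30805391 and 22421062 for TA. Each of the 39 genes had reads in every library, and the fewest were 37 reads, for COX7B in 1 TR library. The fewest were 560 in RA and 544 in TA, both for ATP5J2. No molecular identifiers are described for these reads, so these numbers cover counting error only. All 5 epithelial markers examined (EPCAM, KRT8, KRT18, CDH1 and CLDN4) were at 1 RPKM or more in every library. Of 6 markers of leukocytes, fibroblasts, endothelium and hepatocytes, COL1A1, a collagen gene, ran from 3.33 RPKM in a TA library to 18.9 in a TR library, and the other 5 were below 1 RPKM in every library.

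Differences between parameters are log2 differences of RPKM with 0.1 added, from 1 limma fit over the 7 libraries, with the standard error (SE) and a p-value adjusted by Benjamini-Hochberg over the 14305 genes with at least 1 RPKM in some parameter. All 39 genes passed that filter. As in the study, the log2 ratio of RA to TR is called the stability index and that of TA to RA the translation index. Because RPKM values are shares, a difference says how a gene moved relative to the whole library, and the typical gene itself did not sit at 0. The median over all genes tested was -0.58 for RA minus TR, -0.37 for TA minus RA and -1.08 for TA minus TR. With each library centred on its own median these became 0.09, 0.13 and 0.09. The 3 comparisons share libraries in pairs and are not independent of each other.

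From TR to TA, these genes took a growing share of the reads. The 39 genes together held 0.235% and 0.226% of the reads of the 2 TR libraries, 0.71%, 0.672% and 0.626% of the RA libraries, and 0.956% and 0.951% of the TA libraries. The 3 parameters did not overlap in this share. The median level of the 39 genes was 39.8 RPKM in TR, 122 in RA and 150.1 in TA, while that of all genes tested was 14.2, 8.94 and 6.34. Of the 39 genes, 15 stood among the top 10% of all genes tested by TR, 32 by RA and 29 by TA. At the top, ATP5B, the catalytic beta subunit of the ATP synthase, was at 1303 ± 68.1 RPKM in TA (SD, n = 2), the 99.9 percentile. At the bottom, SDHC, a membrane anchor of complex II, was at 20.1 ± 0.151 RPKM in TA (SD, n = 2), the 74.2 percentile.

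**Figure D1:**
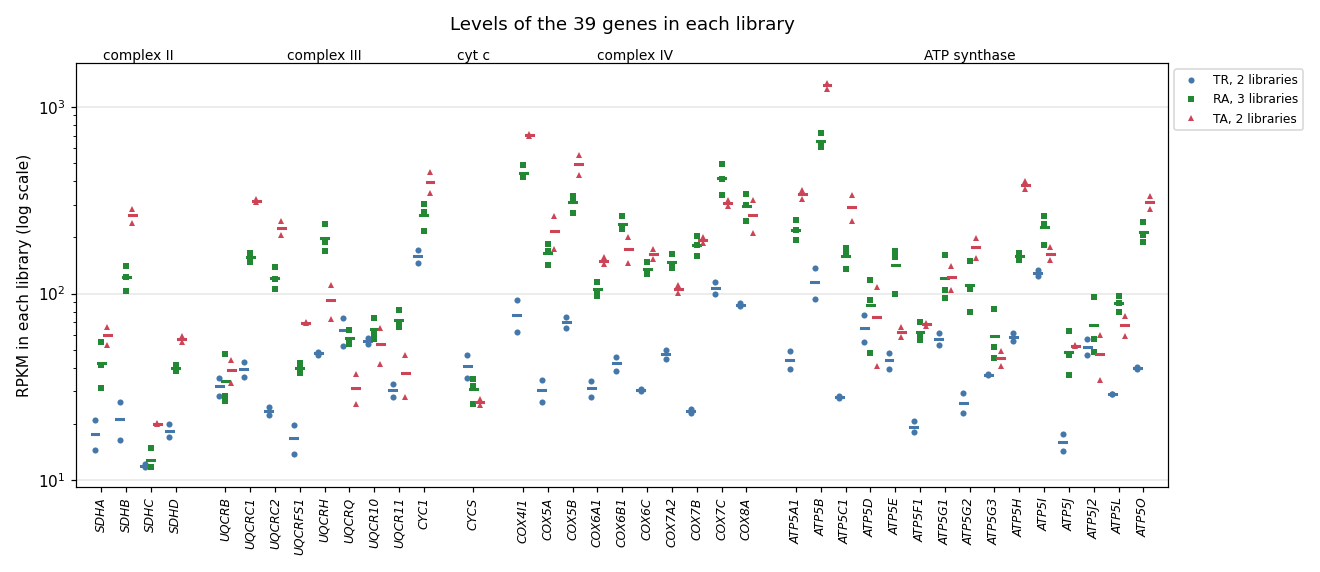
RPKM of each of the 39 genes in each library on a log axis, grouped by complex, with circles for the 2 TR libraries, squares for the 3 RA libraries, triangles for the 2 TA libraries and a short line at each mean. RA lies above TR for all 10 complex IV genes, while CYCS is the gene whose TR libraries both lie above its RA libraries.

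The levels also spread apart. Across the 39 genes log2 RPKM had an SD of 0.90 and 0.89 in TR, 1.17, 1.26 and 1.23 in RA, and 1.49 and 1.38 in TA. The highest of the 39 genes stood 14.1 and 12.3 times above the lowest in TR and 66.9 and 62.8 times in TA. Within complex IV the spread changed little. Its SD over 10 genes was 0.76 and 0.79 in TR, 0.73, 0.76 and 0.67 in RA, and 0.85 and 0.83 in TA. Over the genes above 0 in every library the SD was 1.53 and 1.54 in TR and 2.96 and 2.96 in TA.

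Against TR, RA was higher for 31 of the 39 genes and lower for none at an adjusted p under 0.05 (limma). Of all genes tested, 19.2% were called higher and 48.0% lower. The study describes RA as tending to exceed TR in genes of high expression. By RA all 39 genes stood at or above the 50 percentile of all genes tested, with a median percentile of 96.8. No comparison was made with other genes of similar level, here or for TA. After centring, 35 of the 39 genes were called higher and none lower, with SDHC, UQCR10, ATP5G3 and ATP5J2 gained, against 35.4% and 33.7% of all genes tested. At an unadjusted p under 0.05, 32 genes passed, all of them higher. In either direction, 10027 of the 14305 genes tested passed it. The median stability index of the 39 genes was 1.66, and 2.33 after centring. The libraries of the 2 parameters did not overlap for 32 genes with RA higher and for 1, CYCS, with RA lower (24.3% and 54.9% of all genes tested). With any 1 library left out the count was between 27 and 31 genes. CYC1 lost the call without either TR replicate and without RA replicate 1 or 3, ATP5G1 and ATP5I lost it without either TR replicate, and SDHA lost it without TR replicate 2.

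Against RA, TA was higher for 10 of the 39 genes and lower for 4 (limma), while 6.66% of all genes tested were called higher and 29.2% lower. The median translation index was 0.23, between 0.12 and 0.35 with any 1 library left out, and the libraries did not overlap for 17 genes with TA higher and 9 with TA lower (14.4% and 43.8% of all genes tested). These calls depended on the scaling and on single libraries. After centring, 20 genes were called higher and none lower, against 19.0% and 9.81% of all genes tested. Without TA replicate 1, 2 genes were called higher, UQCRC1 and ATP5H, and none lower, without TA replicate 2 the counts were 5 and 4, and without RA replicate 3 they were 4 and 4. RA replicate 2 and TA replicate 1 deviated to the same side of their parameter in 25 of the 39 genes (64.1%) and in 68.3% of all genes tested. With both left out, a setting chosen after seeing the data, 1 gene, ATP5H, was called higher and none lower. UQCRC1 and ATP5H were the 2 genes called in every fit that left out 1 library. What made these libraries deviate together was not tested.

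**Figure D2:**
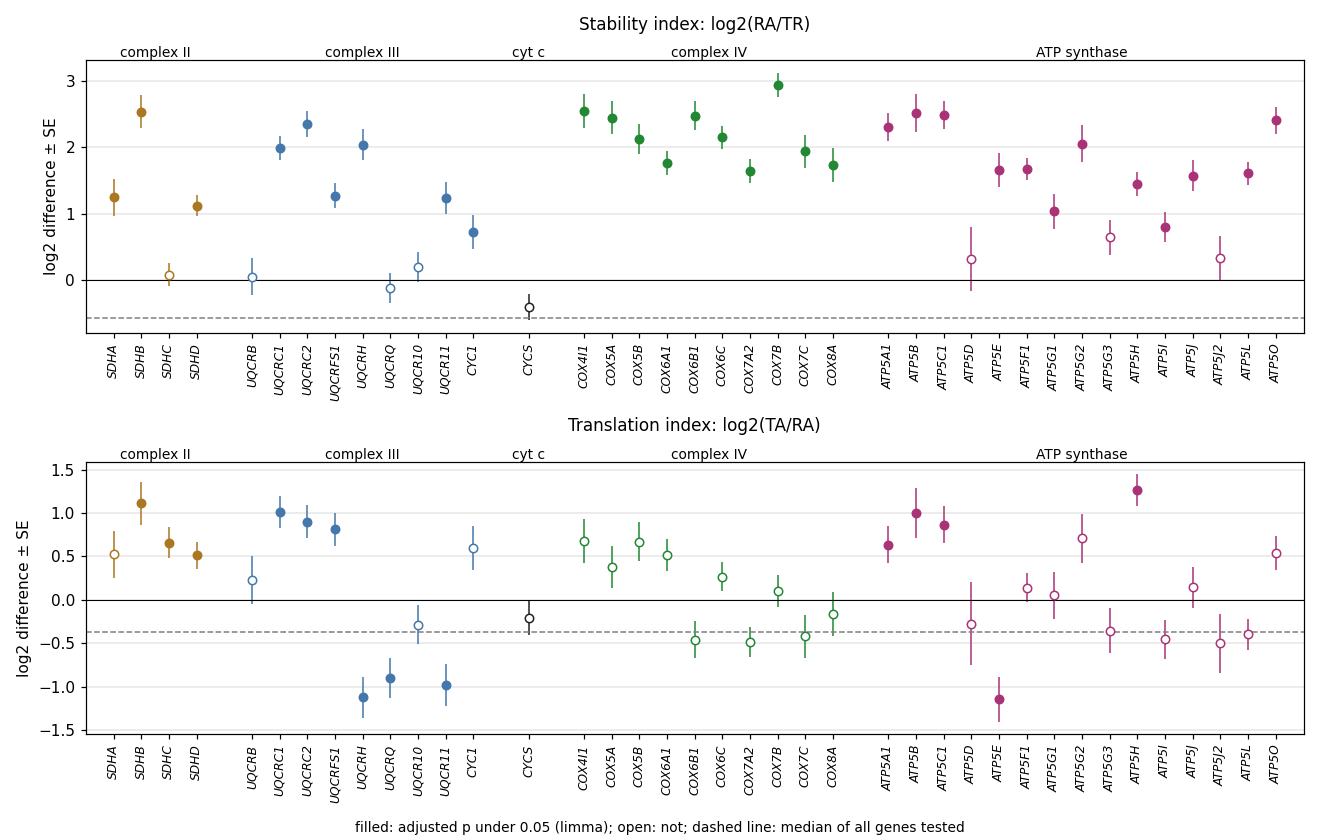
Stability index (upper panel) and translation index (lower panel) of the 39 genes as log2 differences with their SE, by complex, filled where the adjusted p was under 0.05, with the median of all genes tested as a dashed line. All 10 complex IV genes are filled in the upper panel and none in the lower, and the 4 genes filled below 0 in the lower panel are UQCRH, UQCRQ, UQCR11 and ATP5E.

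Complex II is made wholly from nuclear genes, and of the 4 complexes it had the largest SD of log2 RPKM in every RA library. SDHA carries the flavin that oxidises succinate, SDHB carries the iron-sulfur clusters, and SDHC and SDHD anchor both in the membrane. The RPKM values of SDHB were 26.3 and 16.4 in TR, 103, 140.1 and 123 in RA and 285 and 240.1 in TA. Its 3 parameters were fully separate, and SDHB rose the most of the 39 genes from TR to TA. Its stability index was 2.54 ± 0.25 (SE, 5.81-fold, adjusted p = 4.54e-05) and its translation index 1.11 ± 0.25 (2.16-fold, adjusted p = 0.0126). SDHC was not called between TR and RA, except after centring. Its values were 12.2 and 11.8 in TR, 14.8, 11.7 and 11.7 in RA and 20.2 and 19.97 in TA, so TR and RA overlapped, with a stability index of 0.08 ± 0.17, adjusted p = 0.701. TA of SDHC stood above both, with a translation index of 0.66 ± 0.17, adjusted p = 0.0228.

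SDHA was at 20.9 and 14.5 in TR, 54.8, 31.2 and 41.5 in RA and 53.2 and 66.6 in TA, and SDHD at 17.0 and 19.9 in TR, 40.4, 38.3 and 41.6 in RA and 55.1 and 59.2 in TA. RA was higher than TR for both, by 1.24 ± 0.27, adjusted p = 0.00406 for SDHA and by 1.12 ± 0.16, adjusted p = 0.000329 for SDHD. The translation index was 0.51 ± 0.16, adjusted p = 0.036 for SDHD and 0.52 ± 0.27, adjusted p = 0.17 for SDHA, whose RA and TA libraries overlapped. The 2 TR libraries held the 4 genes within a 2.16-fold and a 1.69-fold range, while in TA SDHB stood 14.1 and 12.02 times above SDHC. The reads of SDHA, SDHC and SDHD are less certain, because 21.3%, 61.1% and 50.3% of the 50-base words of their transcripts occur elsewhere in the genome. For SDHB that share was 0%.

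The genes of complex III that were called in TA against RA split into larger and smaller subunits, while UQCRB, UQCR10 and CYC1 were not called. The core proteins UQCRC1 and UQCRC2 and the Rieske iron-sulfur protein UQCRFS1 were higher at both steps, while the hinge protein UQCRH and the small subunits UQCRQ and UQCR11 were lower in TA than in RA. UQCRC1 was at 42.8 and 35.7 in TR, 165, 148 and 156 in RA and 319.6 and 308 in TA. Its stability index was 1.99 ± 0.18, adjusted p = 3.08e-05 and its translation index 1.01 ± 0.18, adjusted p = 0.00629, with no overlap between the parameters. UQCRC2 followed the same course, with indices of 2.35 ± 0.19, adjusted p = 1.59e-05 and 0.90 ± 0.19, adjusted p = 0.0108, and UQCRFS1 had 1.27 ± 0.19, adjusted p = 0.000509 and 0.81 ± 0.19, adjusted p = 0.0148. The reads of UQCRFS1 are less certain, because 22.8% of the 50-base words of its transcript occur elsewhere in the genome.

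UQCRH rose and then fell. Its values were 48.6 and 47.0 in TR, 190.0, 237 and 169 in RA and 73.3 and 111 in TA, which gave a stability index of 2.04 ± 0.24, adjusted p = 0.000126 and a translation index of -1.13 ± 0.24, adjusted p = 0.0106, with TA at 0.458 times RA. Its intronless copy UQCRHL shares sequence with it, 33.4% of the UQCRH words occurred elsewhere in the genome, and reads of the 2 genes cannot be told apart with certainty. UQCRHL was listed at 9.77 ± 1.68 RPKM in TR (n = 2), 124 ± 32.8 in RA (n = 3) and 58.5 ± 10.1 in TA (n = 2), as mean ± SD. UQCR11 had the same form, at 28.0 and 32.7 in TR, 81.8, 67.8 and 65.8 in RA and 27.8 and 47.0 in TA, with 1.24 ± 0.24, adjusted p = 0.00229 and then -0.98 ± 0.24, adjusted p = 0.018. UQCRQ was lower in TA without a called first step. It was at 52.6 and 74.2 in TR, 64.1, 55.6 and 53.5 in RA and 25.7 and 36.98 in TA, so TR and RA overlapped (-0.12 ± 0.23, adjusted p = 0.666) and TA lay below both (-0.90 ± 0.23, adjusted p = 0.0195 against RA). After centring the translation indices of UQCRH, UQCR11 and UQCRQ were -0.62, -0.48 and -0.40, still below 0 and not called.

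UQCRB and UQCR10, further small subunits, were not called between any 2 parameters, though after centring RA of UQCR10 and TA of both were called higher than TR. UQCRB was at 28.3 and 35.5 in TR, 26.5, 47.2 and 28.2 in RA and 44.2 and 33.3 in TA, with a stability index of 0.05 ± 0.28, adjusted p = 0.891. UQCR10 was at 55.9 ± 2.90, 64.2 ± 8.70 and 53.6 ± 16.3 RPKM in TR, RA and TA (mean ± SD, n = 2, 3 and 2). CYC1, cytochrome c1, which holds the haem that reduces cytochrome c, was the most transcribed of the 39 genes, at 172 and 146 in TR, 303, 216 and 273 in RA and 345 and 449.6 in TA. All its parameters were separate, yet its stability index of 0.72 ± 0.25, adjusted p = 0.0339, was the lowest of the 31 called, and its translation index of 0.59 ± 0.25, adjusted p = 0.103, was not called.

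Cytochrome c itself was the 1 gene with both TR libraries above all RA libraries. CYCS encodes the small soluble haem protein that shuttles electrons from complex III to complex IV and that triggers caspase activation when released. It was at 35.4 and 46.6 in TR, 32.1, 34.7 and 25.7 in RA and 27.4 and 25.4 in TA RPKM, and the TA libraries lay below both TR libraries too. The stability index of -0.41 ± 0.20 was the lowest of the 39 genes and was not called (adjusted p = 0.101), nor was the translation index of -0.21 ± 0.20, adjusted p = 0.43. From TR to TA the fall of CYCS was called, at -0.62 ± 0.22, adjusted p = 0.03. After centring it was 0.55 (adjusted p = 0.055), and the call was also lost without TR replicate 2, without TA replicate 1 or without TA replicate 2. By TA it stood at the 79.01 percentile of all genes tested, against 87.0 by TR.

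Complex IV had the highest median stability index of the 4 complexes. Its 10 nuclear genes encode the small subunits that surround the catalytic core made from mitochondrial DNA, and RA was above TR in every library for all 10, with indices from 1.64 to 2.94 and a median of 2.14. COX7B stood highest of the 39 genes. It was at 23.9 and 22.98 in TR, 158, 204 and 183 in RA and 201 and 186 in TA, a 7.68-fold difference between RA and TR (2.94 ± 0.18, adjusted p = 3.32e-06), which rests on 37 reads in TR replicate 1. Of the 2395 50-base words of the canonical COX7B transcript, 247 occur elsewhere in the genome. The exon length behind its RPKM values was 456 bases, and the copied share of that part was not worked out. COX4I1, the largest of the nuclear subunits and a regulatory one, was next at 92.0 and 62.3 in TR, 425, 489 and 419 in RA and 716 and 700.4 in TA (2.55 ± 0.26, adjusted p = 5.29e-05). The smallest index was that of COX7A2, at 1.64 ± 0.18, adjusted p = 7.48e-05.

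From RA to TA none of the 10 was called, and 4 had an unadjusted p under 0.05, as did 6768 of the 14305 genes tested. The values fell on both sides of 0. TA libraries lay above all RA libraries for COX4I1, COX5B, COX6A1 and COX6C, with translation indices of 0.67 ± 0.26, 0.67 ± 0.23, 0.52 ± 0.18 and 0.27 ± 0.17. The reads of COX6A1 are less certain, because 59.8% of the 50-base words of its transcript occur elsewhere in the genome. TA lay below all RA libraries for COX6B1, COX7A2 and COX7C, at -0.46 ± 0.21, -0.48 ± 0.18 and -0.42 ± 0.25. The libraries overlapped for COX5A, COX7B and COX8A, at 0.38 ± 0.25, 0.10 ± 0.18 and -0.17 ± 0.26. After centring COX4I1, COX5A, COX5B, COX6A1 and COX6C were called higher, and the values of COX6B1, COX7A2, COX7C and COX8A turned above 0 without being called. In TA the 10 genes ran from 106 ± 7.12 RPKM for COX7A2 to 708 ± 10.9 for COX4I1 (mean ± SD, n = 2).

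The ATP synthase has a catalytic F1 head, a central stalk, a peripheral stalk and a membrane part with a ring of c subunits. Its median translation index of 0.14 ran from -0.0286 to 0.28 with any 1 library left out. Of its 15 genes RA was higher than TR for 12 and lower for none, and TA was higher than RA for 4 and lower for 1. In the head, the alpha subunit ATP5A1, the beta subunit ATP5B and the central stalk subunit ATP5C1 were higher at both steps. ATP5B was at 137 and 94.1 in TR, 724, 610.3 and 631 in RA and 1351 and 1255 in TA, the highest of the 39 genes in every RA and TA library. Its stability index was 2.52 ± 0.29, adjusted p = 0.00011, and its translation index 0.995 ± 0.29, adjusted p = 0.0306. ATP5C1 was at 28.3 and 27.6 in TR, 164, 176 and 135 in RA and 336 and 244 in TA, with 2.49 ± 0.21, adjusted p = 2.19e-05 and 0.86 ± 0.21, adjusted p = 0.0182. ATP5A1 had 2.31 ± 0.21, adjusted p = 3.15e-05 and 0.63 ± 0.21, adjusted p = 0.049, and TA was 339.5 ± 26.7 RPKM (SD, n = 2), below ATP5B in both TA libraries.

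The other subunits of the central stalk differed from these. ATP5E, the epsilon subunit, was at 39.6 and 48.1 in TR, 169, 158 and 99.3 in RA and 58.6 and 66.5 in TA, so that a stability index of 1.66 ± 0.26, adjusted p = 0.000605 was followed by the lowest translation index of the 39 genes, -1.15 ± 0.26, adjusted p = 0.0127. Exons of its canonical GENCODE 44 transcript overlap those of TUBB1 on the opposite strand over 32.7% of their length, which is 1180 bases. The exon length behind its RPKM values was 439 bases, so not all of that overlap can have been counted. Since the gene annotation and the strand setting of the counting are not stated, its reads are less certain. ATP5D, the delta subunit, varied the most between replicates. It was at 76.4 and 54.9 in TR, 119, 47.9 and 92.9 in RA and 41.1 and 109 in TA, with RA replicate 2 and TA replicate 1 the lowest of their parameters, and its indices of 0.32 ± 0.48 and -0.27 ± 0.48 were not called.

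In the peripheral stalk, ATP5H, the d subunit, had the highest translation index of all 39 genes. It was at 55.5 and 61.4 in TR, 164, 162.6 and 151 in RA and 400.1 and 365 in TA, and both TA libraries lay above all RA libraries by a mean factor of 2.40 (1.26 ± 0.18, adjusted p = 0.00374). ATP5O, the oligomycin sensitivity conferring protein, and ATP5F1, the b subunit, had translation indices of 0.54 ± 0.20 and 0.14 ± 0.17, and ATP5J, coupling factor 6, had 0.14 ± 0.24. None of these 3 was called, while RA was higher than TR for all of them, at 2.41 ± 0.20, 1.68 ± 0.17 and 1.57 ± 0.24. The membrane subunits ATP5I, ATP5J2 and ATP5L had translation indices below 0, at -0.46 ± 0.23, -0.50 ± 0.34 and -0.40 ± 0.18, none called, and those of ATP5I and ATP5L were above 0 after centring. RA was higher than TR for ATP5I (0.80 ± 0.23, adjusted p = 0.0136) and ATP5L (1.61 ± 0.18, adjusted p = 9.74e-05). ATP5J2 was at 57.1 and 46.6 in TR, 96.4, 48.6 and 57.4 in RA and 34.6 and 60.0 in TA, and its stability index of 0.32 ± 0.34, adjusted p = 0.423, was not called, except after centring. Exons of ATP5I overlap MYL5 on the opposite strand, and those of ATP5J2 overlap the readthrough gene ATP5J2-PTCD1 on the same strand, by 39.6% and 33.2% of their length.

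The c subunit of the membrane ring is made from ATP5G1, ATP5G2 and ATP5G3, which differ in the targeting sequence that is cut off and yield the same mature protein. ATP5G1 was at 61.6 and 53.1 in TR, 161, 95.0 and 105 in RA and 105 and 141 in TA. ATP5G2 was at 29.3 and 22.8 in TR, 79.8, 149 and 105 in RA and 198 and 156 in TA, and ATP5G3 at 37.1 and 36.5 in TR, 82.2, 51.5 and 45.0 in RA and 41.1 and 49.3 in TA. As a share of the RPKM summed over the 3 genes, ATP5G2 held 22.9% and 20.3% in TR and 57.7% and 45.1% in TA, while ATP5G3 held 29.0% and 32.5% in TR and 11.9% and 14.2% in TA. ATP5G1 gave the largest share in both TR libraries and ATP5G2 in both TA libraries. The RA libraries varied and overlapped both, with ATP5G2 at 24.7%, 50.3% and 41.3% and ATP5G1 at 49.9%, 32.2% and 41.1%. RA was higher than TR for ATP5G2 (2.05 ± 0.28, adjusted p = 0.000306) and for ATP5G1 (1.03 ± 0.27, adjusted p = 0.0092), and ATP5G3 had 0.64 ± 0.26, adjusted p = 0.0572, which was called after centring. No translation index of the 3 was called, at 0.05 ± 0.27, 0.71 ± 0.28 and -0.36 ± 0.26.

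**Figure D3:**
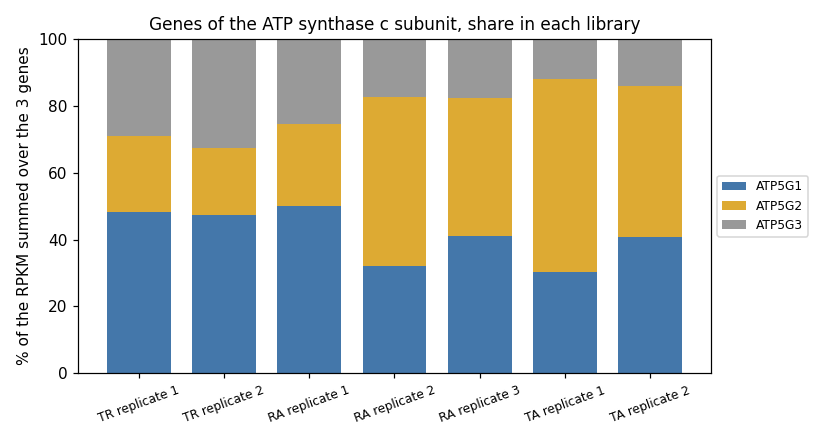
Share of ATP5G1, ATP5G2 and ATP5G3 in their summed RPKM, in percent, as stacked bars for each of the 7 libraries. The ATP5G2 part is under 25% in both TR libraries and in RA replicate 1 and over 41% in the other 4 libraries.

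Across both steps together, TA was higher than TR for 29 of the 39 genes and lower for 2, UQCRQ and CYCS, with a median difference of 1.71 (17.0% of all genes tested were called higher and 57.5% lower). All 4 complex II genes and all 10 complex IV genes were called higher, as were 5 of 9 in complex III and 10 of 15 in the ATP synthase. The largest differences were those of SDHB, 3.65 ± 0.27 or 12.5-fold, ATP5B, 3.52 ± 0.32 or 11.4-fold, and ATP5C1, 3.35 ± 0.24 or 10.2-fold. The smallest were those of UQCRQ, at -1.02 ± 0.25, adjusted p = 0.00603, CYCS, and ATP5J2, at -0.18 ± 0.37, adjusted p = 0.676. Without TR replicate 2 neither UQCRQ nor CYCS was called. After centring, 36 of the 39 genes were called higher (38.0% of all genes tested, with 35.3% lower) and neither UQCRQ nor CYCS was called lower, at 0.16 and 0.55. The libraries did not overlap for 32 genes with TA higher and 2 with TA lower (22.7% and 65.5% of all genes tested).

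The translation index of these genes was higher where the coding sequence was longer. Over the 39 genes Spearman's rho between the index and the coding length was 0.79, and it was 0.87 over the 9 genes of complex III, 0.66 over the 10 of complex IV and 0.75 over the 15 of the ATP synthase. The points share the same libraries and are not independent. For each of the 6 pairs of 1 TA and 1 RA library rho lay between 0.67 and 0.84, and over the 30 genes without uncertain reads it was 0.75. Over all 13705 protein-coding genes tested it was -0.03. Against the exon length behind the RPKM values, as worked out from them, rather than the coding length, rho of the 39 genes was 0.28. With the stability index the coding length gave 0.23.

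Of the 13 genes with a coding sequence under 300 bases, 11 had a translation index below 0 (84.6%, against 87.4% of all protein-coding genes of that length), so this share was close to the background. Their median was -0.46, and after centring 5 were below 0 (38.5%, against 67.1%). All 4 genes called lower were in this class (30.8%, against 44.8% of all genes of that length), which ran from the 156 bases of ATP5E to the 285 of ATP5J2. The 15 genes of 300 to 600 bases had a median of 0.38, with 3 called higher (20%, against 5.28%). All 11 genes over 600 bases lay above 0, with a median of 0.81 and 7 called higher (63.6%, against 7.25%). Over all protein-coding genes the medians of the same classes were -0.85 (286 genes), -0.49 (1533) and -0.32 (11886). In each class the median of the 39 genes was above that of all genes, though ATP5E, UQCRH, UQCR11 and UQCRQ lay below the latter, and these differences were not tested. The longest of the 39, SDHA with 1995 bases, was not the highest, and ATP5H with 486 bases was.

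**Figure D4:**
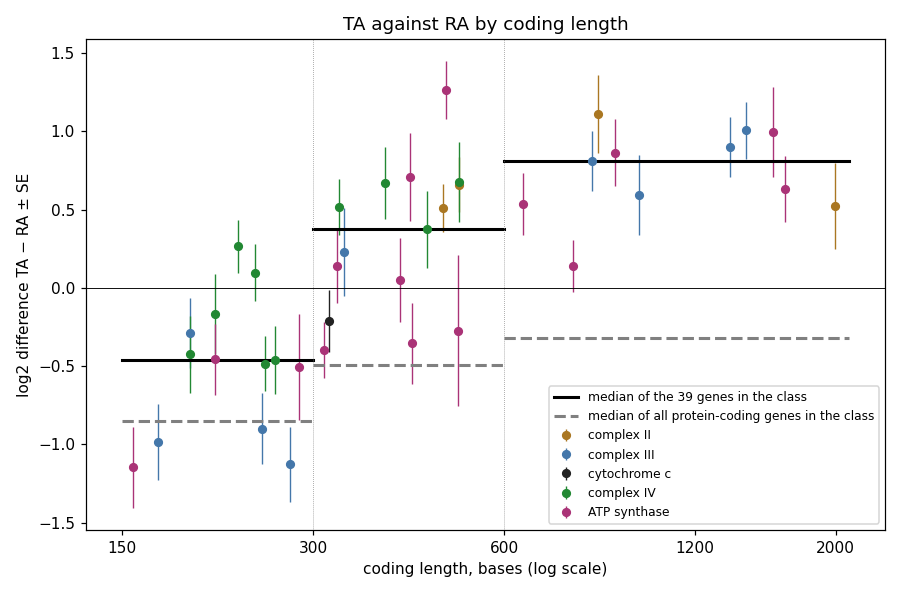
Translation index with its SE against coding length on a log axis, coloured by complex, for the 39 genes, with the median of the 39 genes (solid) and of all protein-coding genes (dashed) in the classes under 300, 300 to 600 and over 600 bases. All 11 genes over 600 bases lie above 0, and 11 of the 13 under 300 bases lie below it.

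The start codons of the 3 genes with the highest and the 3 with the lowest translation index are shown because initiation is read from the bases around them. The sequences run from 12 bases before the start codon, which is in capitals, and come from the canonical transcripts of GENCODE release 44 on GRCh37. The highest 3 were ATP5H (chr17:73034958-73043080, minus strand, start codon from position 73038745), SDHB (chr1:17345159-17380527, minus strand, start codon from position 17380514) and UQCRC1 (chr3:48636435-48648409, minus strand, start codon from position 48647053).
ATP5H: aaggatcccaaaATGgctgggcgaaaactt
SDHB: tcaggagccaagATGgcggcggtggtcgcc
UQCRC1: tgcagctggaagATGgcggcgtccgtggtc
The lowest 3 were ATP5E (chr20:57600530-57607400, minus strand, start codon from position 57607306), UQCRH (chr1:46769370-46782448, plus strand, start codon from position 46769439) and UQCR11 (chr19:1597168-1605472, minus strand, start codon from position 1605408).
ATP5E: tttcgctacagcATGgtggcctactggaga
UQCRH: ccgtagccagacATGggactggaggacgag
UQCR11: gactccgccgcgATGgtgacccggttcctg
All 6 have a purine 3 bases before the start codon and a G after it, which are the positions of the classical initiation context. A purine stood there in all 39 genes and in 86.7% of 13441 protein-coding genes tested, and both features were found in 21 of the 39 (53.8%) and in 45.6% of all.

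Promoters were read because genes of the respiratory chain are known targets of NRF-1, of ETS-family factors such as GABP (nuclear respiratory factor 2) and of YY1. Promoter sequences from 250 bases before to 50 after the start of transcription were taken from RefSeq on GRCh38.p14, where 31 of the 39 genes matched. They were searched on both strands for the NRF-1 palindrome in either of its usual spellings, for CCGGAAG (ETS) and for AAGATGGCG (YY1). The ETS letters were in 14 of the 31 (45.2%) and in 10.3% of all 35116 promoters of that length, or 18.02% of the 11048 of genes tested. The NRF-1 letters were in 5, namely SDHD, UQCR11, ATP5C1, ATP5I and ATP5O (16.1%, against 2.77% and 4.996%). The YY1 letters were in 3 (9.68%, against 1.75% and 3.70%). Examples were taken from the genes of highest TR among those with the letters in question. All are shown on the strand of the gene, with the matched letters in capitals. They are ATP5I (chr4:674431-674460, minus strand) and ATP5O (chr21:33915809-33915838, minus strand) for NRF-1, ATP5I (chr4:674255-674284, minus strand) and COX8A (chr11:63974591-63974620, plus strand) for ETS, whose letters lie on the opposite strand in both, and UQCRC1 (chr3:48609604-48609633, minus strand) for YY1.
ATP5I, NRF-1: cagcctttgtGCGCGTGCGCctcacgtgac
ATP5O, NRF-1: acgccaacgcGCGCGTGCGCccttgcgcgt
ATP5I, ETS: tgcaggttgtgCTTCCGGtgcggaggtcag
COX8A, ETS: cagctccagaaCTTCCGGccagcgcagcca
UQCRC1, YY1: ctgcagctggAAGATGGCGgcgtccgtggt
In SDHB and UQCRC1 this YY1 match is the same stretch as the bases across the start codon shown above, and not a further site. In CYC1, which was not among the 31 promoters, the YY1 letters also run across the start codon. The 14 genes with the ETS letters had a median TR of 45.0 RPKM and the 17 without 39.3, and their median stability indices were 1.67 and 1.94. With and without the NRF-1 letters the median TR was 30.4 and 41.6, and the median stability index 1.24 and 1.75. For the YY1 letters these were 21.4 and 41.6, and 1.99 and 1.71. A match of letters is a description and not a binding site.

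Other genes of the organelle give the setting. For the 37 nuclear subunits of complex I, the NADH dehydrogenase that starts the chain, RA was higher than TR for 24 and lower for 3, with a median of 1.04, and TA was higher than RA for 16 and lower for 0, with a median of 0.46. NDUFS4 had the largest stability index of them, 2.63 ± 0.30, adjusted p = 0.000111, and NDUFB8, an accessory subunit, the largest translation index, 1.29 ± 0.19, adjusted p = 0.00396. For the 77 mitochondrial ribosomal proteins the counts were 34 higher and 9 lower in RA against TR, with a median of 0.38, and 31 and 7 in TA against RA, with a median of 0.41. After centring the counts at the 2 steps were 32 and 0, then 25 and 0, for complex I, and 60 and 6, then 52 and 0, for the ribosomal proteins. The 39 genes thus had the higher median at the first step and the lower at the second, and differences between these lists were not tested.

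The factors that build the complexes lay closer to the median of all genes than the subunits. Of 37 assembly factors RA was higher than TR for 5 and lower for 13, and TA was higher than RA for 3 and lower for 9, with medians of -0.36 and -0.23. After centring the medians were 0.31 and 0.27, with 14 higher and 10 lower at the first step and 8 higher and 2 lower at the second. The widest gaps were in complex IV factors. COX20, a chaperone of a mitochondrially encoded subunit, was at 25.3 ± 0.294 RPKM in TR (n = 2) and 0.778 ± 0.486 in RA (n = 3), a difference of -4.99 ± 0.45, adjusted p = 3.01e-05. COX19, a copper-handling protein, was at 58.1 ± 15.04 and 4.24 ± 1.55, a difference of -3.78 ± 0.32, adjusted p = 1.92e-05, and SCO2, a copper chaperone, at 15.2 ± 0.263 and 1.51 ± 0.361, a difference of -3.28 ± 0.27, adjusted p = 1.51e-05 (all as mean ± SD). Overlapping or copied genes were not looked up for these and the following genes.

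COX7A1, the heart and muscle isoform that can replace COX7A2, was at 20.1 ± 0.0513 RPKM in TR but 0.0835 ± 0.0384 in RA and 0.122 ± 0.00759 in TA (mean ± SD, n = 2, 3 and 2), a stability index of -6.80 ± 0.24, adjusted p = 5.53e-07. ATP5L2, a second gene for the ATP5L subunit, was at 9.76 ± 0.285 RPKM in TR and 0.0408 ± 0.0354 in RA and was listed at 0 in both TA libraries, a stability index of -6.16 ± 0.27, adjusted p = 7.02e-07. RA of COX7A1 and ATP5L2 was below the 0.1 RPKM added before taking logs, so the sizes of these differences depend on it. COX6B2, the testis isoform of COX6B1, went from 16.4 ± 4.82 RPKM in TR to 0.873 ± 0.029 in RA (-4.05 ± 0.28, adjusted p = 5.79e-06). COX4I2, the lung isoform of COX4I1, and COX7B2 were under 1 RPKM in every parameter. Of the 12 genes of this list that were tested, RA was higher than TR for 4 and lower for 6 (5 and 5 after centring). Of all genes tested, 19.2% were higher and 48.0% lower before centring. Among 11 regulators of mitochondrial biogenesis that were tested, RA was higher than TR for 3 and lower for 4 (7 and 0 after centring), and TA was higher than RA for none and lower for 1. GABPA and GABPB1, the subunits of the ETS-family factor above, were at 2.74 ± 0.143 and 4.33 ± 0.115 RPKM in TR and 7.55 ± 0.296 and 12.7 ± 2.98 in RA, with stability indices of 1.43 ± 0.19, adjusted p = 0.000282 and 1.504 ± 0.25, adjusted p = 0.000874. Exons of ATP5J overlap those of GABPA on the opposite strand over 52 bases, and the strand setting is not stated, so the reads of GABPA are less certain. ESRRA, a nuclear receptor that activates these genes, was the 1 called lower in TA against RA, at -1.17 ± 0.17, adjusted p = 0.00362, and the coactivator PPARGC1A was under 1 RPKM in every parameter.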

How the data were processed

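The 7 libraries of HCT116 cells were grouped by their labels into TR (GRO-seq, n = 2), RA (RNA-seq, n = 3) and TA (polysome profiling, n = 2). Per the study's methods and the submitters' processing notes (CASAVA, TopHat, HTSeq), the authors mapped reads to hg19 (GRCh37) with TopHat, counted them over the exons of each gene with HTSeq and deposited RPKM values, each library scaled on its own. Tool versions, the gene annotation, the counting mode and the strand setting are not given in the sources used here. Samples were pooled on sequencing lanes without a record of which shared one, so lanes could not be examined.

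RPKM values are whole multiples of what 1 read is worth for each gene length, which gave back the library sizes. Of the values above 0, 100% came out whole within 0.001 reads. On simulated data this returned 7 of 7 library sizes and exact reads for 98.9% of 15394 genes.

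Values were tested as log2(RPKM + 0.1) with limma 3.58.1 (R 4.3.3), 1 fit over 7 libraries with a variance trend, for the 14305 genes whose mean reached 1 RPKM in some parameter, with Benjamini-Hochberg adjustment over all of them. A fold on this scale understates the change of low genes. On simulated data for TA against RA over 11779 genes, 90% of 100 genes changed by 1 on the log2 scale and 100% of 100 changed by 2 were recovered. The simulated libraries were independent, with a fixed dispersion, and lacked the shared deviation of RA replicate 2 and TA replicate 1. The simulation therefore cannot say what share was recovered in the real libraries. The alternatives were other pseudocounts, other filters, centring, no trend, voom weights, a replicate block, each library left out, uncertain genes left out, and 1 pair of libraries left out together. Reads were called uncertain where over 20% of a transcript's 50-base words occur elsewhere in the genome or over 20% of its exons overlap another gene of the expression table. Overlaps with annotated genes absent from that table, which pass 20% for COX8A, ATP5L and ATP5O, were not counted. These shares refer to the canonical transcript, which can be longer than the exons counted, as for COX7B and ATP5E. Shares over the counted exons were not worked out. Transcripts came from GENCODE 44 on GRCh37 and promoters from RefSeq on GRCh38.p14, by symbol or synonym. All 39 genes are named. Those given in every library are the 3 highest and 3 lowest of each comparison, complex II, CYC1, CYCS and ATP5G1 to ATP5G3 by rule, and UQCRQ and ATP5D after their values were seen. Of the other lists at most 3 called genes per comparison are named, from those with the largest differences, and further ones (COX4I2, COX7B2, PPARGC1A, UQCRHL) after their values were seen. The members and lists were chosen with earlier results of these data known.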

Additional observations from a re-analysis of the deposited data

How the results depend on the processing

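The calls of RA against TR were stable, and those of TA against RA were not. Pseudocounts of 0.01 and 1, both other filters on low values, a fit without a variance trend and voom weights on the recovered reads left every count of calls within 1.5 times its value. The alternatives left 1713 of the log2 differences of single genes on the same side of 0 and of the threshold, 31 passed the threshold newly, 88 lost it and 40 changed sign. Where a setting changed a value the cause was not tested, except that centring adds the same shift to every gene.

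Centring each library on its median gave median stability indices of 2.33 for the 39 genes, 1.85 for complex II, 1.91 for complex III, 0.26 for cytochrome c, 2.81 for complex IV, 2.28 for ATP synthase, median translation indices of 0.73 for the 39 genes, 1.09 for complex II, 0.73 for complex III, 0.29 for cytochrome c, 0.68 for complex IV, 0.64 for ATP synthase, and median differences of TA against TR of 2.89 for the 39 genes, 2.87 for complex II, 2.09 for complex III, 0.55 for cytochrome c, 3.52 for complex IV, 2.89 for ATP synthase. It called TA higher than RA for 20 genes and lower for 0, and TA lower than TR for 0. Values that changed sign under centring were, for RA against TR, UQCRQ 0.55 and CYCS 0.26, for TA against RA, UQCR10 0.21, CYCS 0.29, COX6B1 0.0401, COX7A2 0.0168, COX7C 0.0779, COX8A 0.34, ATP5D 0.23, ATP5G3 0.15, ATP5I 0.0448 and ATP5L 0.10, and for TA against TR, UQCRQ 0.16, UQCR10 1.08, CYCS 0.55 and ATP5J2 0.99, of which UQCR10 and ATP5J2 in TA against TR were called.

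Without the 9 genes of uncertain reads the median stability index was 1.84 over all, 2.54 for complex II (SDHB alone) and 0.72 for complex III, the translation index of complex II was 1.11, TA was lower than RA for 2 genes, and the median of TA against TR was 1.92 over all, 3.65 for complex II, 0.27 for complex III and 2.26 for the ATP synthase.

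Leaving out 1 library at a time, with a lone sample assumed to vary like the other groups, TA was higher than RA for 2 to 12 genes and lower for 0 to 4, and lower than TR for 0 to 2. The median stability index ranged over 1.01 to 1.35 for complex III and 2.08 to 2.20 for complex IV, the median translation index over 0.12 to 0.35 for the 39 genes, -0.0286 to 0.28 for the ATP synthase, 0.54 to 0.75 for complex II and 0.028 to 0.45 for complex III, and the median of TA against TR over 1.60 to 1.84 for the 39 genes. Single genes whose sign changed ranged as follows. For RA against TR they were SDHC -0.0309 to 0.14, UQCRB -0.22 to 0.21, UQCRQ -0.37 to 0.13. For TA against RA they were UQCR10 -0.60 to 0.028, COX8A -0.46 to 0.13, ATP5D -0.97 to 0.43, ATP5G1 -0.16 to 0.28, ATP5J -0.0443 to 0.34. For TA against TR they were UQCR10 -0.41 to 0.22, UQCR11 -0.12 to 0.63, ATP5D -0.66 to 0.75, ATP5J2 -0.58 to 0.22. With RA replicate 2 and TA replicate 1 both left out, chosen after seeing the data, TA was higher than RA for 1 gene and lower for 0, TA was lower than TR for 1, and the median of TA against TR was 1.84. The signs that changed were UQCRB -0.22 for RA against TR, COX8A 0.000233 and ATP5D 0.0502 for TA against RA and UQCR10 0.22 and ATP5J2 0.22 for TA against TR.

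The labels number the replicates of each assay. The study describes cells divided among the 3 assays, but neither it nor the labels tie a number in one assay to the same number in another. The difference between replicates 1 and 2 correlated across all genes at -0.50 between RA and TA, at 0.08 between RA and TR and at 0.01 between TA and TR. The difference of RA replicates 2 and 3 correlated with that of TA replicates 1 and 2 at 0.63, so libraries of RA and TA deviated together across numbers and not within them. With the number as a replicate block, which leaves out RA replicate 3, RA was higher than TR for 30 genes, TA was higher than RA for 1 and lower for 2, with 3 of the 14 calls kept, and TA was lower than TR for 1, and the translation indices of ATP5G1 -0.0286 and ATP5J -0.0443 changed sign.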

Other observations

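Complex I and the mitochondrial ribosome, whose nuclear genes are likewise translated in the cytosol and imported, also had higher translation indices where the coding sequence was longer. Spearman's rho was 0.63 over 36 complex I genes with a coding length and 0.52 over 77 mitochondrial ribosomal proteins. With the stability index rho was 0.19 and 0.36. The values are a description over genes that share the same libraries, and these lists were looked at with the results for the other complexes known. Within complex I the accessory subunits NDUFB8 and NDUFA12 and the iron-sulfur subunit NDUFS8 had the highest translation indices, at 1.29 ± 0.19, adjusted p = 0.00396, 1.17 ± 0.15, adjusted p = 0.00312 and 1.13 ± 0.22, adjusted p = 0.00839. Among the ribosomal proteins MRPL2, MRPL39 and MRPL28 had the highest, at 1.45 ± 0.20, adjusted p = 0.00347, 1.33 ± 0.17, adjusted p = 0.00312 and 1.25 ± 0.19, adjusted p = 0.00396.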
